A study of Mus musculus with 18 samples.

Results

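Cholesterol genes were examined in the visceral fat (white adipose tissue, WAT) of diabetic mice with and without bezafibrate (BEZ). The set was listed by function: 32 genes for the control of cholesterol synthesis, for the enzymes from acetyl-CoA to cholesterol, and for uptake, lysosomal release, transport, ester breakdown and oxidation of cholesterol. Its members were chosen with earlier results of these data known, so counts within it are descriptions and no set test was run. For 30 of these 32 genes a probe set with that gene symbol alone was found among 35556 probe sets of the Affymetrix Mouse Gene 1.0 ST array, out of 19938 genes measured in this way. Acat2 and Soat1 were not analysed here.

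All mice were male wildtype C57BL/6N animals aged 5 to 6 months, and each array held the RNA of 1 mouse. The STZ, BEZ group (n = 5) had been made diabetic with streptozotocin (STZ), a toxin of the insulin-producing beta cells, and then received chow with BEZ, a fibrate that activates PPAR nuclear receptors. The STZ, SD group (n = 6) received STZ and standard diet (SD in the group names), and the Con, SD group (n = 7) was nondiabetic on the same diet. Per the labels, 65 mg/kg STZ was given on 5 days at an age of 10 to 16 weeks, controls received citrate buffer, and BEZ was fed at 0.25% or 0.5% by weight for 8 weeks from 2 weeks after STZ. The study's methods differ from the labels in the STZ dose, in naming a single share of BEZ and in describing the controls as untreated, and the labels do not say which array had which share of BEZ. The samples are labelled as biological replicates, with no cages or litters given. Since whole tissue was hybridised, fewer cells of a type and less RNA per cell cannot be told apart.

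Cells make cholesterol from acetyl-CoA through mevalonate, isoprenoid phosphates, squalene and lanosterol. The transcription factor SREBP2, encoded by Srebf2, turns on most genes of this route when membrane sterol is low: SCAP escorts it from the endoplasmic reticulum to the Golgi, and the INSIG proteins hold it back when sterol is plentiful. SREBP2 binds sterol regulatory elements and is known to act together with NF-Y, which binds CCAAT boxes. Adipocytes take up much of their cholesterol from lipoproteins, release it in lysosomes and keep it largely unesterified at the surface of the lipid droplet.

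RefSeq promoter windows (GRCm38.p6) of 300 bases, 250 before and 50 after the annotated start, were at hand for 24 of the 30 measured genes. The letters CCAAT were found on either strand in 14 of 14 synthesis enzymes with a window and in 22 of the 24 genes, compared with 41.1% of all 27025 genes with a window. The sterol regulatory element letters TCACNCCAC were found in 2 of the 24 genes, Hmgcs1 and Stard3, compared with 1.44% of all genes, and in both it lay apart from the CCAAT matches. The 150 bases before the start are shown for 5 genes, those with the largest falls in STZ, SD vs. Con, SD among genes that passed the test and have a window. They are read 5′ to 3′ on the strand of the gene, with matches to CCAAT on either strand and to TCACNCCAC in capitals. On the opposite strand the box reads ATTGG. They lie at chrX:72918371-72918520 (plus strand) for Nsdhl, chr9:42264301-42264450 (minus) for Sc5d, chr13:119690201-119690350 (plus) for Hmgcs1, chr1:169969206-169969355 (minus) for Hsd17b7 and chr12:84773113-84773262 (minus) for Npc2.
Nsdhl: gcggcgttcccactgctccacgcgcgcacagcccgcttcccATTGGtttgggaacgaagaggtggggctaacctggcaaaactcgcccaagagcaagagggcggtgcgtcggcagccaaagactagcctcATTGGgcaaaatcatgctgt
Sc5d: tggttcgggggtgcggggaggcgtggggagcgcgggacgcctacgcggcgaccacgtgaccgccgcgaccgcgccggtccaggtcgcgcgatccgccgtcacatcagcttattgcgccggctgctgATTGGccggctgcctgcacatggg
Hmgcs1: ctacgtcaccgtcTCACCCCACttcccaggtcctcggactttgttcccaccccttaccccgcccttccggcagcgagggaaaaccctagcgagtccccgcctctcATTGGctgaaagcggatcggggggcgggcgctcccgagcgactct
Hsd17b7: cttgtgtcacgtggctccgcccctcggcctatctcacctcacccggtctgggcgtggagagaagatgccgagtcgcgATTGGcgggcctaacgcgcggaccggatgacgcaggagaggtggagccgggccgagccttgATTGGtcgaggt
Npc2: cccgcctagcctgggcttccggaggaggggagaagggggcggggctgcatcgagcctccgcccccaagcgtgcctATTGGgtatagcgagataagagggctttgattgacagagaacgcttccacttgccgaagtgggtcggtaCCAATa

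In Hmgcs1 the sterol element began 137 bases before the start and a CCAAT match began 45 bases before it. The other 4 stretches held 1 or 2 CCAAT matches each and no match to TCACNCCAC. This was the only pattern searched for the sterol element, with no mismatch allowed, so elements with other letters would be missed. A match is a description of letters and was not tested as a binding site.

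The deposited values are log2 signals, so a difference of 1 is a factor of 2, and array medians lay between 6.76 and 6.87. Adipocyte genes checked the tissue label: 9 measured genes such as Adipoq and Plin1 averaged 12.51 to 12.58 in STZ, BEZ, 10.46 to 12.59 in STZ, SD and 11.83 to 12.50 in Con, SD. Genes of other organs were also present on some arrays. The mean of 9 pancreas genes was 6.28 to 12.20 in STZ, BEZ, 6.09 to 13.54 in STZ, SD and 6.17 to 6.53 in Con, SD, with 4 STZ, BEZ arrays (replicates 1 to 4) and STZ, SD replicate 6 at the high end. The mean of 9 epididymis genes was 5.59 to 6.39 in STZ, BEZ, 5.51 to 12.03 in STZ, SD and 6.65 to 11.98 in Con, SD, and it was over 8 on 5 arrays: STZ, SD replicates 3 and 4 and Con, SD replicates 3, 5 and 6. Macrophage genes (10 measured) averaged 8.98 to 9.42 in STZ, BEZ, 8.25 to 9.23 in STZ, SD and 8.46 to 9.46 in Con, SD. Genes of steroid-making glands (10 measured), which use cholesterol as substrate, averaged 5.93 to 6.22 in STZ, BEZ, 5.79 to 6.89 in STZ, SD and 6.05 to 6.65 in Con, SD. Liver genes (9 measured) averaged 8.22 to 10.90 in STZ, BEZ, 7.55 to 8.38 in STZ, SD and 8.29 to 10.08 in Con, SD, and mesothelium genes (8 measured) averaged 8.06 to 8.91, 7.39 to 9.15 and 7.52 to 8.38 in the same 3 groups.

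The comparison STZ, SD vs. Con, SD asked how insulin-deficient diabetes altered these genes. Of the 30 genes, 0 rose and 9 fell in STZ, SD (30%), at an adjusted p under 0.10 in a limma fit over all genes, and SAM called 0 higher and 12 lower (the same 9 with Insig1, Pmvk and Dhcr7), where it called 12.5% of all genes in either direction. With limma, of all 19938 genes, 5.82% rose and 4.52% fell. All but 1 of the 9 were enzymes of cholesterol synthesis: Hmgcs1, Mvk and Fdps of the mevalonate route, and Lss, Nsdhl, Hsd17b7, Ebp and Sc5d of the sterol steps. The other was Npc2, which carries cholesterol inside the lysosome. The differences ran from -0.48 for Ebp and Mvk to -1.21 for Nsdhl on the log2 scale, or 1.39-fold to 2.31-fold lower.

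The 17 measured synthesis enzymes all had a negative difference, 8 of them past the threshold (47.1%) and 12 at an unadjusted p under 0.05. Their median difference was -0.50, compared with -0.03 over all genes. Of all 19938 genes, 11232 had a negative difference, 10.3% passed the threshold in either direction and 4043 had an unadjusted p under 0.05. The 9 genes of uptake, lysosome, transport, ester breakdown and oxidation had a median difference of -0.06, with 5 negative and 4 positive, and only Npc2 among them fell. On each array, the mean difference of the 17 enzymes from the Con, SD mean was 0.03, -0.30, -0.14, -0.68 and -0.36 in STZ, BEZ replicates 1 to 5. In STZ, SD replicates 1 to 6 it was -0.40, -0.65, -0.14, -0.63, -0.60 and -1.06, and in Con, SD replicates 1 to 7 it was -0.42, -0.16, -0.03, 0.00, 0.19, 0.25 and 0.16. STZ, SD replicates 1 and 3 thus lay within the range of the Con, SD arrays, and Con, SD replicates 1 and 2 within that of STZ, SD. STZ, SD replicate 6, the array with the highest pancreas genes and the lowest adipocyte genes, was the lowest of all.

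**Figure D1:**
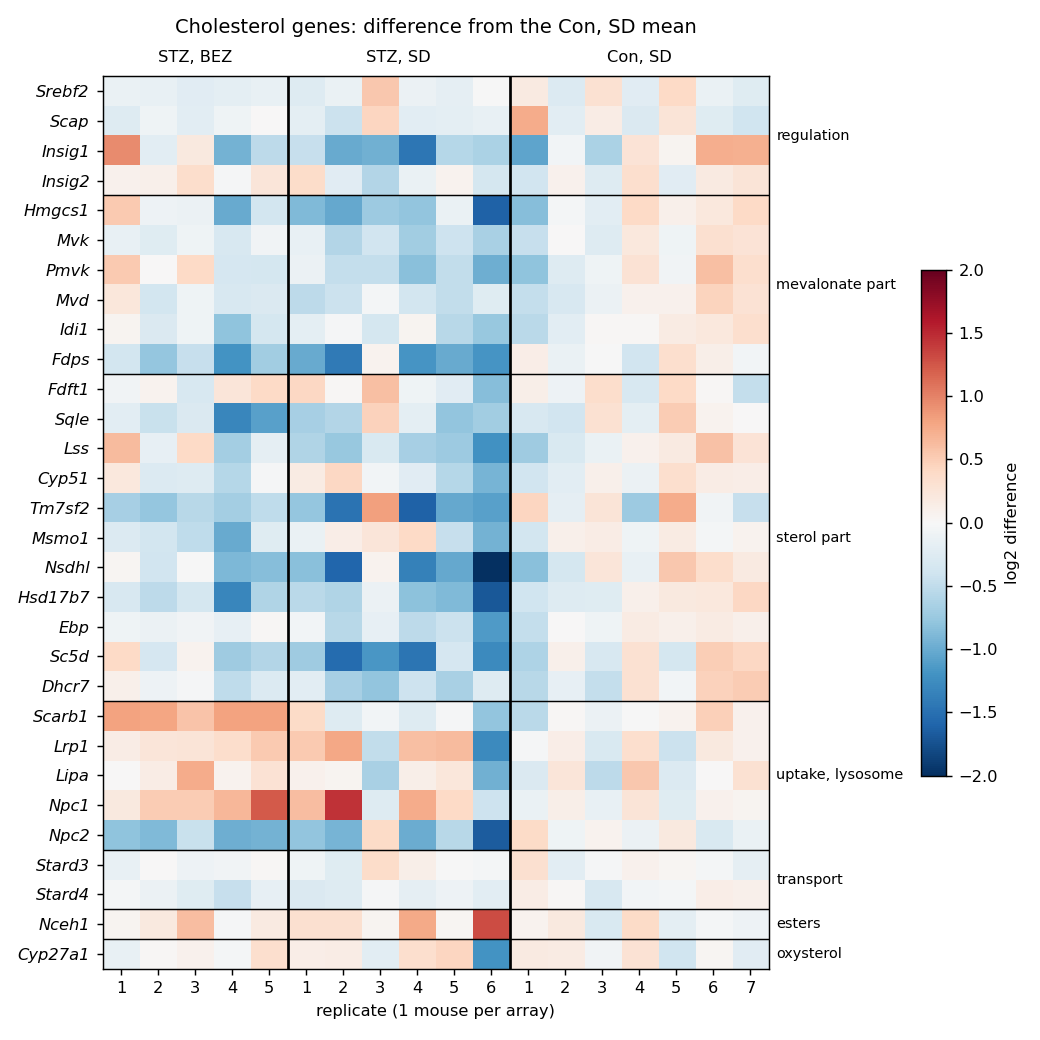
Log2 difference of each of 30 cholesterol genes (rows, ordered by step) from its Con, SD mean on each of 18 arrays (columns, STZ, BEZ at the left, then STZ, SD and Con, SD). The rows of synthesis enzymes are mostly below 0 in STZ, SD, with a mean of -1.06 on replicate 6 and -0.14 on replicate 3.

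The 4 control genes did not reach the threshold of the limma fit in STZ, SD vs. Con, SD, while Insig1 was called lower by SAM. Srebf2, the transcription factor itself, had log2 signals of 8.85, 8.85, 8.77, 8.80 and 8.85 in STZ, BEZ, of 8.73, 8.86 and 9.53 (lowest, median, highest) in STZ, SD, and of 8.72, 8.85 and 9.38 in Con, SD. Its 3 groups overlapped fully, and the difference between STZ, SD and Con, SD was -0.03 ± 0.13 (SE; adjusted p = 0.938). STZ, SD replicate 3, the array with the highest epididymis genes, held the highest Srebf2 signal.

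Insig1, itself a target of SREBP2 that also rises with insulin, had signals of 12.08, 10.92, 11.33, 10.19 and 10.61 in STZ, BEZ, of 9.70, 10.34 and 10.68 in STZ, SD, and of 10.08, 11.19 and 11.87 in Con, SD. All 6 STZ, SD arrays were below the Con, SD mean, but only 1 was below every Con, SD array, and the difference of -0.84 ± 0.31 missed the threshold (adjusted p = 0.123). SAM called it lower, and so did limma with the dimmest genes left out, with array weights, with the epididymis and pancreas covariates and on leaving out 3 of the 18 arrays in turn. Insig2, the second INSIG gene, and Scap had differences of -0.14 ± 0.15 (adjusted p = 0.641) and -0.13 ± 0.17 (adjusted p = 0.723).

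Among the 6 measured mevalonate genes, 3 fell. Hmgcs1, which joins acetyl-CoA and acetoacetyl-CoA to HMG-CoA, had signals of 10.56, 9.93, 9.93, 9.03 and 9.67 in STZ, BEZ, of 8.42, 9.20 and 9.91 in STZ, SD, and of 9.18, 10.14 and 10.44 in Con, SD. It fell by 0.86 ± 0.25 (adjusted p = 0.0545), and 3 of the 6 STZ, SD arrays were below every Con, SD array. Mvk, the kinase of mevalonate, had signals of 8.29, 8.20, 8.36, 8.11 and 8.36 in STZ, BEZ, of 7.74, 7.94 and 8.28 in STZ, SD, and of 7.97, 8.45 and 8.75 in Con, SD. All 6 STZ, SD arrays were below its Con, SD mean, and the fall was 0.48 ± 0.12 (adjusted p = 0.0320).

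Fdps, the synthase of farnesyl diphosphate, had signals of 9.82, 9.41, 9.72, 8.99 and 9.49 in STZ, BEZ, of 8.77, 9.09 and 10.26 in STZ, SD, and of 9.79, 10.18 and 10.52 in Con, SD. Except for replicate 3, which was above the median of the controls, the STZ, SD arrays lay below all Con, SD arrays. The fall was 0.95 ± 0.20 (1.94-fold, adjusted p = 0.0139), the lowest adjusted p of the 30 genes in this comparison. Without replicate 3 it was 1.16. Pmvk, Mvd and Idi1, which act between Mvk and Fdps, had differences of -0.56 (adjusted p = 0.131), -0.35 (adjusted p = 0.167) and -0.31 (adjusted p = 0.326).

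The route then commits to sterols. Fdft1, the squalene synthase, had a difference of -0.02 ± 0.20 (adjusted p = 0.970) and was the enzyme nearest to 0. Sqle, the squalene epoxidase, had signals of 8.58, 8.35, 8.50, 7.49 and 7.71 in STZ, BEZ, of 8.00, 8.17 and 9.25 in STZ, SD, and of 8.41, 8.80 and 9.30 in Con, SD. Although 4 of 6 STZ, SD arrays were below all Con, SD arrays, replicate 3 stood near the top, and the difference was -0.41 ± 0.22 (adjusted p = 0.335). Lss, which closes the ring to lanosterol, had signals of 9.12, 8.33, 8.88, 7.81 and 8.31 in STZ, BEZ, of 7.28, 7.79 and 8.18 in STZ, SD, and of 7.79, 8.58 and 9.08 in Con, SD. It fell by 0.71 ± 0.22 (adjusted p = 0.0625), with 3 of 6 STZ, SD arrays below the lowest Con, SD array.

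Of the enzymes that trim lanosterol, Nsdhl and Hsd17b7, which act with Msmo1 in removing methyl groups, fell. Nsdhl had signals of 10.63, 10.19, 10.58, 9.68 and 9.74 in STZ, BEZ, of 8.06, 9.40 and 10.65 in STZ, SD, and of 9.75, 10.76 and 11.12 in Con, SD. It fell by 1.21 ± 0.32 (2.31-fold, adjusted p = 0.0384), the widest difference of the set, with 5 of 6 STZ, SD arrays below every Con, SD array. Hsd17b7 had signals of 8.09, 7.89, 8.05, 7.11 and 7.80 in STZ, BEZ, of 6.70, 7.70 and 8.28 in STZ, SD, and of 8.00, 8.50 and 8.82 in Con, SD. It fell by 0.78 ± 0.22 (adjusted p = 0.0452), again with 5 of 6 STZ, SD arrays below all Con, SD arrays. In both genes the array within the Con, SD range was STZ, SD replicate 3 and the lowest was replicate 6. Without replicate 6 the falls were 0.94 for Nsdhl (adjusted p = 0.0485) and 0.59 for Hsd17b7 (adjusted p = 0.0560).

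The last steps rearrange the double bonds of the ring. Ebp, a sterol isomerase, had signals of 9.15, 9.12, 9.16, 9.07 and 9.26 in STZ, BEZ, of 8.10, 8.76 and 9.18 in STZ, SD, and of 8.77, 9.34 and 9.40 in Con, SD. It fell by 0.48 ± 0.14 (adjusted p = 0.0574), with 3 of 6 STZ, SD arrays below every Con, SD array. Sc5d, a sterol desaturase, had signals of 11.07, 10.33, 10.75, 9.97 and 10.09 in STZ, BEZ, of 9.13, 9.46 and 10.34 in STZ, SD, and of 10.05, 10.77 and 11.16 in Con, SD. Its fall was 1.08 ± 0.24 (2.11-fold, adjusted p = 0.0164), and only STZ, SD replicate 5 reached the Con, SD range. The remaining sterol enzymes had differences of -0.86 for Tm7sf2 (adjusted p = 0.119), -0.50 for Dhcr7 (adjusted p = 0.105), -0.20 for Cyp51 (adjusted p = 0.613) and -0.13 for Msmo1 (adjusted p = 0.751).

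**Figure D2:**
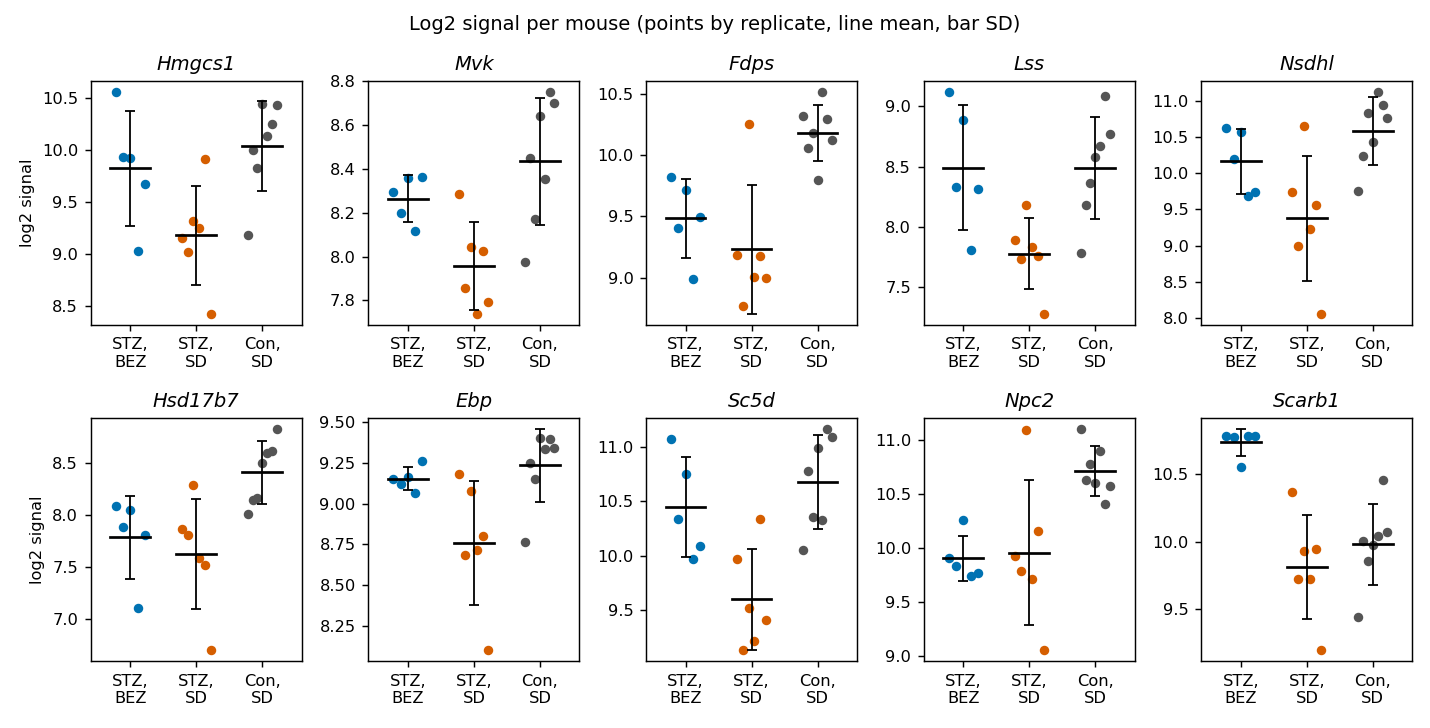
Log2 signal per mouse for the 10 genes past the threshold in any comparison, with STZ, BEZ, STZ, SD and Con, SD from left to right, the mean as a line and the standard deviation as a bar. Scarb1 lies between 10.56 and 10.78 in STZ, BEZ, above all other arrays, and Npc2 lies between 10.41 and 11.10 in Con, SD, above all STZ, BEZ arrays.

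Among the 5 genes of uptake and lysosome, only Npc2 passed the threshold in STZ, SD vs. Con, SD. It had signals of 9.91, 9.84, 10.26, 9.75 and 9.77 in STZ, BEZ, of 9.06, 9.86 and 11.09 in STZ, SD, and of 10.41, 10.63 and 11.10 in Con, SD. It fell by 0.76 ± 0.22 (adjusted p = 0.0556), with 5 of 6 STZ, SD arrays below every Con, SD array and replicate 3 next to the highest Con, SD array. Npc1, the membrane partner of NPC2, had a difference of 0.42 ± 0.24 (adjusted p = 0.347), and Lipa, the lysosomal acid lipase that frees cholesterol from esters, of -0.19 ± 0.21 (adjusted p = 0.671). The lipoprotein receptors Scarb1 and Lrp1 had differences of -0.16 ± 0.16 (adjusted p = 0.615) and 0.13 ± 0.27 (adjusted p = 0.842). The sterol carriers Stard3 and Stard4 had differences of 0.02 and -0.18, the ester hydrolase Nceh1 of 0.46 (adjusted p = 0.145) and the sterol hydroxylase Cyp27a1 of -0.06. Npc1 was called higher with array weights and with the epididymis and pancreas covariates. Npc1 and Lrp1 were both called higher with the adipocyte covariate and without STZ, SD replicates 3 and 6. These fits called 15.1% to 19.3% of all genes, compared with 10.3%. Nceh1 was called higher without STZ, SD replicate 3 or 5, where 13.6% and 11.1% of all genes were called.

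The count of 9 depended on single arrays and on the arrays with epididymis genes. It was 5 without STZ, SD replicate 2, and between 6 and 13 without any other array, and Mvk, Fdps, Nsdhl, Hsd17b7 and Sc5d stayed past the threshold each time. The share of all genes called shifted too, from 10.3% to 5.66% without STZ, SD replicate 2 and to between 5.95% and 14.5% without any other array. Without the 5 arrays with epididymis genes over 8, 3 genes were past the threshold, where the share of all genes called was 3.35%. They were Fdps (-1.04, adjusted p = 0.0297), Npc2 (-0.99, adjusted p = 0.0492) and Tm7sf2. Sc5d (-1.01, adjusted p = 0.134) and Hmgcs1 (-0.89, adjusted p = 0.256) kept their size but missed the threshold, and the cause was not tested. With the epididymis and pancreas means as covariates, Fdps had a difference of -0.78 (adjusted p = 0.0117) and Npc2 of -0.52 (adjusted p = 0.0887). With the adipocyte mean as a covariate, Sc5d had a difference of -0.91 (adjusted p = 0.0188) and Nsdhl stayed past the threshold (adjusted p = 0.0568).

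**Figure D3:**
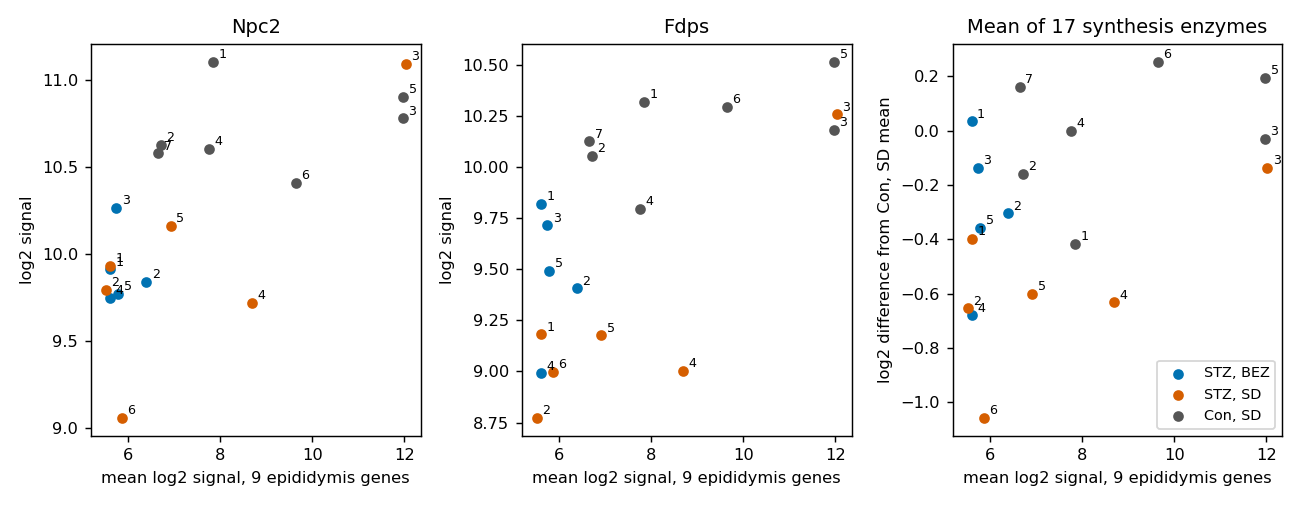
Log2 signal of Npc2 and Fdps and mean log2 difference of 17 synthesis enzymes from Con, SD (vertical axes) against the mean log2 signal of 9 epididymis genes (horizontal axis), with 1 point per array marked by its replicate number. STZ, SD replicate 3, at 12.03 for the epididymis genes, has the highest Npc2 and Fdps signals of its group (11.09 and 10.26).

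The comparison STZ, BEZ vs. STZ, SD asked what BEZ altered in the diabetic mice. It shares the STZ, SD arrays with the comparison above, so a low STZ, SD value enters both with opposite sign. Scarb1, which encodes the scavenger receptor that takes up cholesteryl esters from HDL, rose in STZ, BEZ, and 0 of the 30 genes fell. Of all genes, 0.682% rose and 0.0251% fell. Of the 17 synthesis enzymes, 0 passed the threshold with limma or with SAM, 7 had an unadjusted p under 0.05, 15 had a positive difference, and their median was 0.25, compared with 0.01 over all genes. Of all 19938 genes, 2036 had an unadjusted p under 0.05 and 10390 had a positive difference.

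Scarb1 had signals of 10.78, 10.78, 10.56, 10.78 and 10.78 in STZ, BEZ, of 9.20, 9.83 and 10.37 in STZ, SD, and of 9.45, 10.01 and 10.46 in Con, SD. All 5 STZ, BEZ arrays were above every other array. The rise was 0.92 ± 0.17 (1.89-fold, adjusted p = 0.0501) over STZ, SD and 0.75 ± 0.17 (1.69-fold, adjusted p = 0.0210) over Con, SD. The adjusted p over STZ, SD was 0.124 without STZ, SD replicate 2 or 4 and 0.169, 0.163 and 0.123 without STZ, BEZ replicates 1, 2 and 4, with differences of 0.90 to 0.91. Adipocyte genes, too, were in a narrow range on the STZ, BEZ arrays (12.51 to 12.58), compared with 10.46 to 12.59 in STZ, SD. With their mean as a covariate, the Scarb1 difference was 0.61 both over STZ, SD (adjusted p = 0.295) and over Con, SD (adjusted p = 0.00947), and with the epididymis and pancreas means it was 1.08 (adjusted p = 0.0121) and 1.00 (adjusted p = 0.00960).

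Among the enzymes that had fallen in STZ, SD, the differences of STZ, BEZ from STZ, SD were 0.85 ± 0.26 for Sc5d (adjusted p = 0.221), 0.79 ± 0.35 for Nsdhl (adjusted p = 0.455), 0.71 ± 0.24 for Lss (adjusted p = 0.267) and 0.65 ± 0.28 for Hmgcs1 (adjusted p = 0.421). For Ebp, Mvk, Fdps and Hsd17b7 they were 0.39, 0.31, 0.25 and 0.16. These p-values do not show that the genes were equal in both groups. STZ, BEZ replicate 1 had the highest and replicate 4 the lowest signal of its group for Insig1, Hmgcs1, Lss, Nsdhl, Sc5d, Fdps and Hsd17b7. Sqle and Msmo1 were the only enzymes with a negative difference, at -0.26 (adjusted p = 0.794) and -0.35 (adjusted p = 0.613).

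Insig1 had a difference of 0.73 ± 0.34 (adjusted p = 0.479), with 3 of 5 STZ, BEZ arrays above every STZ, SD array. Srebf2 had one of -0.14 ± 0.14 (adjusted p = 0.811). The largest differences among the other genes were 0.61 for Pmvk (adjusted p = 0.343) and 0.44 for Lipa (adjusted p = 0.546). Npc2 had a difference of -0.05 ± 0.24 (adjusted p = 0.971), and its STZ, BEZ arrays all lay within the STZ, SD range.

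With the epididymis and pancreas means as covariates, a setting chosen after the data were seen, 6 genes passed in STZ, BEZ vs. STZ, SD. The same fit called 11.4% of all genes, compared with 0.707% without the covariates. Fdft1, Lss, Nsdhl, Ebp and Scarb1 were higher in STZ, BEZ, and Nceh1 was lower. Pancreas genes were high on 4 of the 5 STZ, BEZ arrays and on 1 of the 6 STZ, SD arrays, so in this fit BEZ and the pancreas signal are separated by few arrays.

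**Figure D4:**
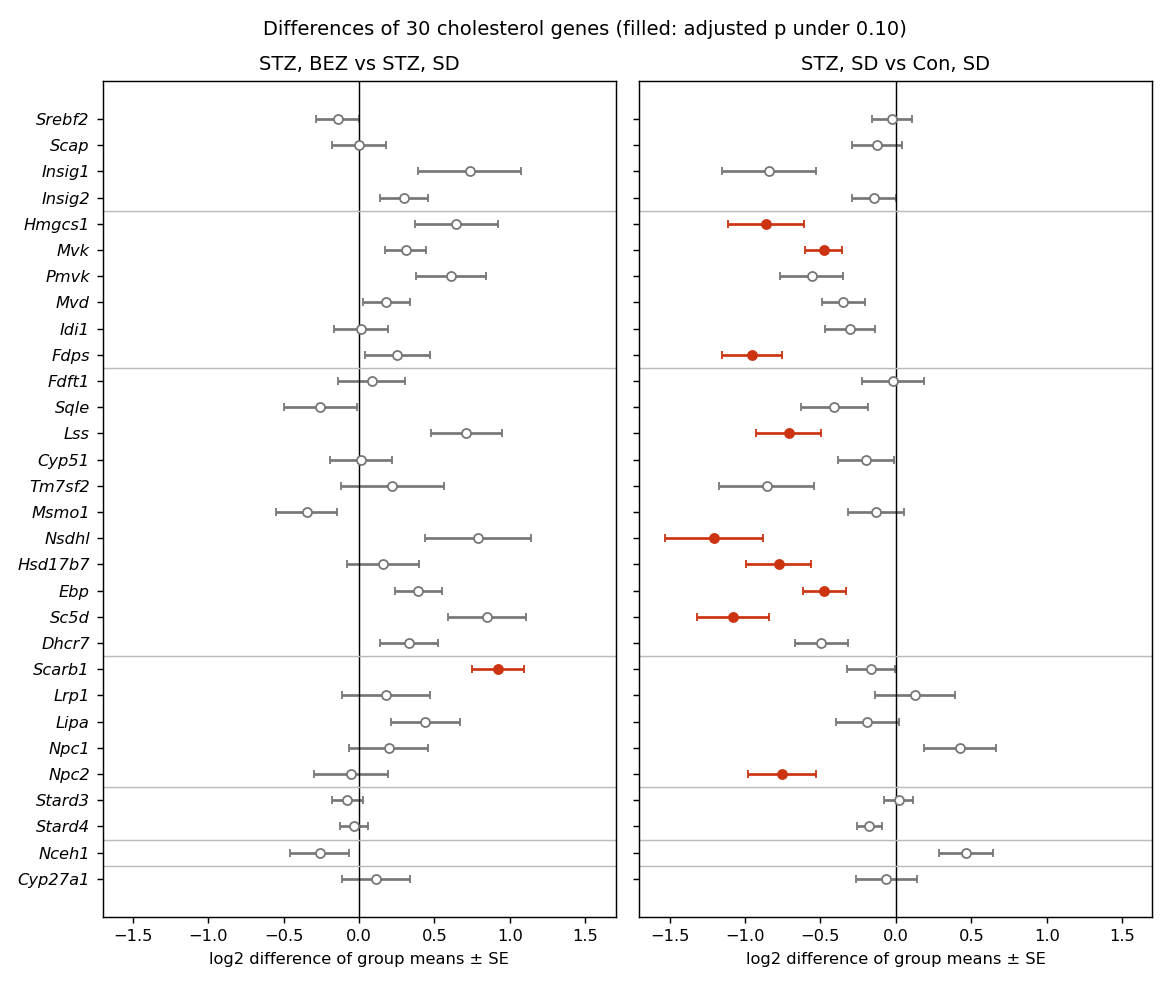
Log2 difference of group means with its standard error for 30 cholesterol genes, for STZ, BEZ vs. STZ, SD (left) and STZ, SD vs. Con, SD (right), filled where the adjusted p was under 0.10. On the right 9 genes are filled, all below 0, and on the left Scarb1 alone is filled, at 0.92.

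The comparison STZ, BEZ vs. Con, SD set treated diabetic mice against nondiabetic ones. Scarb1 rose, Fdps and Npc2 fell, and the other 27 genes did not pass the threshold. Of all genes, 4.57% rose and 1.38% fell. Fdps fell by 0.70 ± 0.21 (1.62-fold, adjusted p = 0.0777), with 4 of 5 STZ, BEZ arrays below every Con, SD array. Npc2 fell by 0.81 ± 0.24 (1.75-fold, adjusted p = 0.0712), and all 5 STZ, BEZ arrays lay below every Con, SD array. The calls of Fdps and Npc2 were each lost on leaving out any of 9 single arrays, with adjusted p up to 0.195 for Fdps (without STZ, BEZ replicate 4) and 0.185 for Npc2 (without STZ, BEZ replicate 5). Epididymis genes were lower in every STZ, BEZ array than in any Con, SD array. With the epididymis and pancreas means as covariates, the differences were -0.36 for Fdps (adjusted p = 0.317) and -0.24 for Npc2 (adjusted p = 0.576). Since the epididymis means of these groups do not overlap, this fit cannot fully separate group from epididymis signal. Without the arrays of epididymis genes over 8, the differences were -0.59 for Fdps (adjusted p = 0.119) and -0.82 for Npc2 (adjusted p = 0.0775).

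The synthesis enzymes had a median difference of -0.22 from Con, SD, with 15 of 17 negative. Over all 19938 genes the median was -0.01, with 10241 negative. Of the 17 enzymes, 1 passed the threshold (Fdps, 5.88%), near the 5.95% called over all genes. Lss had a difference of 0.00, while the neighbouring Sqle had one of -0.66 ± 0.24 (adjusted p = 0.139), with all 5 STZ, BEZ arrays below the Con, SD mean and 3 of them below every Con, SD array. Hsd17b7 had a difference of -0.62 ± 0.23 (adjusted p = 0.155), Tm7sf2 of -0.64 ± 0.33 (adjusted p = 0.321), Msmo1 of -0.48 ± 0.20 (adjusted p = 0.201) and Sc5d of -0.23 ± 0.25 (adjusted p = 0.671). Npc1 had signals of 9.53, 9.84, 9.85, 9.99 and 10.57 in STZ, BEZ and of 9.10, 9.39 and 9.60 in Con, SD, a difference of 0.62 ± 0.25 (adjusted p = 0.195) with the opposite sign to that of Npc2. SAM called Npc1 higher, and so did limma with array weights and with only the 2 groups fitted. The same held with the epididymis and pancreas covariates and without STZ, SD replicates 3 and 6. These settings called 14.1% to 24.9% of all genes, compared with 5.95%.

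A further 24 genes of cholesterol biology that are not in the set were followed, of which 20 were measured, among them the SREBP protease Mbtps1, the sterol carriers of the Gramd1 family and the cholesterol hydroxylases. In STZ, SD vs. Con, SD, 0 rose and 2 fell (10% called), near the 10.3% called over all genes. Vldlr, the receptor for triglyceride-rich lipoproteins, fell by 0.79 ± 0.19 (adjusted p = 0.0272), with signals of 8.56, 9.07 and 9.55 in STZ, SD and of 9.21, 9.90 and 10.40 in Con, SD. Cav1, which shapes the cholesterol-rich caveolae of the adipocyte surface, fell by 0.68 ± 0.22 (adjusted p = 0.0820), with signals of 10.83, 11.92 and 12.71 in STZ, SD and of 12.39, 12.75 and 12.86 in Con, SD. Its lowest signal was on STZ, SD replicate 6, the array lowest in adipocyte genes.

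In STZ, BEZ vs. STZ, SD, 0 of the 20 passed the threshold with limma. An unadjusted p under 0.05 was found for 4 of them, compared with 2036 of all 19938 genes. In STZ, BEZ vs. Con, SD, 1 rose and 0 fell (5% called), near the 5.95% called over all genes. Acat1, a mitochondrial acetoacetyl-CoA thiolase, rose by 0.69 ± 0.19 (adjusted p = 0.0543), with signals of 11.03, 11.07, 10.93, 11.05 and 10.95 in STZ, BEZ and of 9.82, 10.38 and 10.62 in Con, SD. All 5 STZ, BEZ arrays were above every Con, SD array.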

How the data were processed

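RNA from visceral fat of 18 mice was hybridised to Affymetrix Mouse Gene 1.0 ST arrays. Per the labels, the authors summarised the arrays by RMA in Affymetrix Expression Console 1.2. Log2 signals are what was deposited. No background level was given with them, so no filter on low values was used, and the number of arrays limits the precision. Of 35556 probe sets, 21789 had a single gene symbol in the platform annotation, 1621 had several and 12146 had none here. Where a gene had several probe sets, the one with the largest average signal stood for it (19938 genes).

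The 3 groups were fitted together with limma 3.58.1 in R 4.3.3, with 15 residual and 2.44 prior degrees of freedom. The p-values were adjusted over all genes by the Benjamini-Hochberg method, and genes were called at an adjusted p under 0.10, the rate the study used with SAM. In simulated data with 200 changed genes, limma recovered 90 of 100 genes changed by 1 on the log2 scale in STZ, SD vs. Con, SD, 79 in STZ, BEZ vs. STZ, SD and 86 in STZ, BEZ vs. Con, SD. In the same order, 12 of 202, 17 of 194 and 27 of 209 calls were false. The simulated noise was independent between genes and held no shift shared by the genes of an organ. These counts therefore do not give the recovery on the real arrays. No 2 arrays were copies (highest correlation 0.991).

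The members and lists were chosen with earlier results of these data known. All members were named, with array values for those called in any comparison and for Srebf2, Insig1, Hmgcs1 and Sqle, and called genes of the further 24. The array values of Npc1 and Vldlr, Cav1 and Acat1 were added after their values were seen. Alternatives were a stricter threshold of 0.05, a fold minimum of 1.5, SAM with 100 permutations, other probe set rules, leaving out the dimmest 30% of genes, other normalizations, a variance trend, array weights, fits of only 2 groups, a replicate block and each array left out. Fits without the arrays of high epididymis genes, without STZ, SD replicates 3 and 6, and with marker means as covariates were chosen after seeing the data. Liver, muscle and metabolite data were not analysed here.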

Additional observations from a re-analysis of the deposited data

Results flagged for a closer look

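In 90 groups of arrays (30 genes in 3 groups), 8 held an array whose gap to the others was above the critical value of Dixon's test, and chance alone gives about 1 in 20 groups.

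STZ, SD replicate 3 stood above the rest of its group in 4 genes. It had 9.53 for Srebf2 (others 8.73 to 8.98), 9.61 for Scap (others 8.75 to 9.03), 10.26 for Fdps (others 8.77 to 9.18) and 9.30 for Tm7sf2 (others 6.87 to 7.72). This array also had the highest mean of epididymis genes in its group, 12.03.

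STZ, BEZ replicate 4 had 7.11 for Hsd17b7 (others 7.80 to 8.09). STZ, BEZ replicate 3 had 10.56 for Scarb1, while the other 4 arrays of the group all had 10.78. Con, SD replicate 1 had 8.77 for Ebp (others 9.15 to 9.40), and Con, SD replicate 3 had 6.75 for Stard4 (others 7.02 to 7.21).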

How the results depend on the processing

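For single genes, 3060 values were recomputed. Of these, 2912 kept their side of the threshold, 73 lost the call, 75 gained it and 0 turned a called direction. Only genes called in the main fit could lose a call. Differences that were not called could change sign, as that of Fdft1 in STZ, SD vs. Con, SD did in 12 settings. In STZ, SD vs. Con, SD, 9 of the 30 genes were called. The count was 5 at an adjusted p under 0.05, 3 without the 5 arrays of high epididymis genes (2 of the 9, and Tm7sf2) and 5 to 13 with 1 array left out (5 of the 9 without STZ, SD replicate 2, with other genes added at the high end). Of the 17 synthesis enzymes, 8 were called, and these counts were 5, 2 (Fdps and Tm7sf2) and 5 to 11 (5 without STZ, SD replicate 2 or Con, SD replicate 6 or 7). The share of all genes called was 5.46%, 3.35% and 5.66% to 14.5% in these settings, in the same order, compared with 10.3%. With 1 array left out, Hmgcs1 lost its call without STZ, SD replicate 2 (adjusted p = 0.114) or Con, SD replicates 6 (0.104) or 7 (0.114). Lss and Ebp lost theirs without STZ, SD replicates 2 or 4 or Con, SD replicates 6 or 7 (adjusted p from 0.111 to 0.129), and Npc2 without STZ, SD replicates 2 or 4 (adjusted p up to 0.123).

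In STZ, BEZ vs. STZ, SD, 1 gene was called, compared with 0 at an adjusted p under 0.05, with only the 2 groups fitted, without the arrays of high epididymis genes, with the adipocyte mean as a covariate and without STZ, SD replicates 3 and 6. The share of all genes called was 0.0853%, 0.0702%, 0.0201%, 0.0251% and 0.0853% in these settings, in the same order, compared with 0.707%. With 1 array left out it was 0.0552% to 3.54%. The count was 6 with the epididymis and pancreas means as covariates, where 11.4% of all genes were called, and 0 to 2 with 1 array left out: 0 without STZ, SD replicates 2 or 4 or STZ, BEZ replicates 1, 2 or 4, and 2 without STZ, SD replicates 1 or 5, where Sc5d was added.

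In STZ, BEZ vs. Con, SD, 3 genes were called. The count was 1 at an adjusted p under 0.05, 9 by SAM, 7 with array weights, 8 with only the 2 groups fitted, 5 with the epididymis and pancreas covariates (Scarb1 the only one shared with the 3) and 8 without STZ, SD replicates 3 and 6. The share of all genes called was 3.02%, 24.9%, 19.1%, 14.1%, 18.6% and 14.7% in these settings, in the same order, compared with 5.95%. With 1 array left out, 1 to 5 of the genes were called, where the share of all genes was 2.1% to 10.5%. The count was 1 (Scarb1) without Con, SD replicates 1, 2, 3, 5 or 7 or STZ, BEZ replicates 2, 4 or 5, and 5 without STZ, SD replicate 6. SAM called 12 genes in STZ, SD vs. Con, SD.

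The causes of these shifts were not tested. The labels do not say whether replicate numbers pair the arrays. Of 16 same-numbered pairs, 2 had deviations correlated over 0.1 (range -0.357 to 0.700). The pair at 0.700 was replicate 3 of STZ, SD and Con, SD, both high in epididymis genes. Such correlations cannot settle whether same-numbered arrays shared a batch. With a replicate block, 2 genes were called in STZ, SD vs. Con, SD (Fdps and Npc2, 1 of them a synthesis enzyme), 0 in STZ, BEZ vs. STZ, SD and 2 in STZ, BEZ vs. Con, SD. The share of all genes called with the block was 3.41%, 0.01% and 3% in the same order, compared with 10.3%, 0.707% and 5.95% without it.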
